A study of Mus musculus with 9 samples.

Results

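The S100 genes described here are 10 genes of the mouse S100 family, S100a1, S100a4, S100a6, S100a8, S100a9, S100a10, S100a11, S100a13, S100a14 and S100a16, taken by symbol from a deposited expression table of 56748 genes. All 10 were in the table, and 9 of them were among the 17338 genes tested; S100a8 had too few reads. RNA was sequenced from primary airway basal stem cells, the progenitors at the base of the tracheal lining, isolated from wild-type mice. Their culture was an air-liquid interface, in which a porous support feeds the cells from below while their upper side meets air, and a layered epithelium forms. Libraries were made on day 1 (3 libraries, the stage the submitters call proliferation), day 3 (3 libraries, stratification) and day 5 (3 libraries, luminal specification). Every library was wild type and grown in the same kind of culture, with no other treatment in the labels, so day was the only labelled difference. The comparisons ask how the S100 genes change as basal cells stratify and then take on luminal fates.

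S100 proteins are small calcium sensors built around paired EF-hand loops. They work mostly as dimers, and calcium opens a surface on each subunit that grips a partner such as an annexin, a myosin or a ubiquitin ligase adaptor. Some are also released without a signal peptide and act outside the cell as alarm signals, through the receptors RAGE (Ager) and TLR4, or by withholding metal ions from microbes. Most of the genes lie in a cluster beside those for cornified envelope proteins, and several are abundant in stratified epithelia. All 10 genes here are on mouse chromosome 3.

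Libraries held 16.4 to 35.1 M reads and grew shallower with time, by day averaging 30.8 ± 4.29, 21.9 ± 2.55 and 17.6 ± 1.51 M (days 1, 3 and 5; SD, n = 3 each). All 8 epithelial markers listed (Epcam, Cdh1, Krt5, Krt14, Krt15, Trp63, Krt8 and Krt18) were present on every day, the lowest mean being 1644 ± 155 normalized counts of Trp63 on day 3 (SD, n = 3), and no read fell on the leukocyte adaptor Tyrobp or the glial factors Sox10 and Foxd3 in any library. The days also differed in sex-linked transcripts. Over days 1, 3 and 5, the summed level of 4 Y-linked genes averaged 3137, 324 and 461 normalized counts, and that of Xist 1825, 5998 and 7373, so a difference in the sex of the source animals and the day cannot be told apart here. Whether the 3 libraries of a day stem from different cultures or mice is not in the labels, so a p-value here speaks only of the spread among these libraries, which may be technical. In these bulk samples, fewer cells of a type and less RNA per cell cannot be told apart.

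Most S100 genes had their highest mean on day 3. Of the 10, 7 did so, S100a8 and S100a9 had theirs on day 1, and S100a1 had its on day 5. For S100a13, 1 of the 7, the libraries of days 3 and 5 overlapped. The share of all tested genes with their highest mean on day 3 was not counted. Levels are given as normalized counts, which are read counts divided by 1 size factor per library. Changes are on the scale of log2(normalized count + 1), later day over earlier day, with limma's Benjamini-Hochberg adjusted p over all tested genes, and a gene is called at an adjusted p under 0.05.

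**Figure D1:**
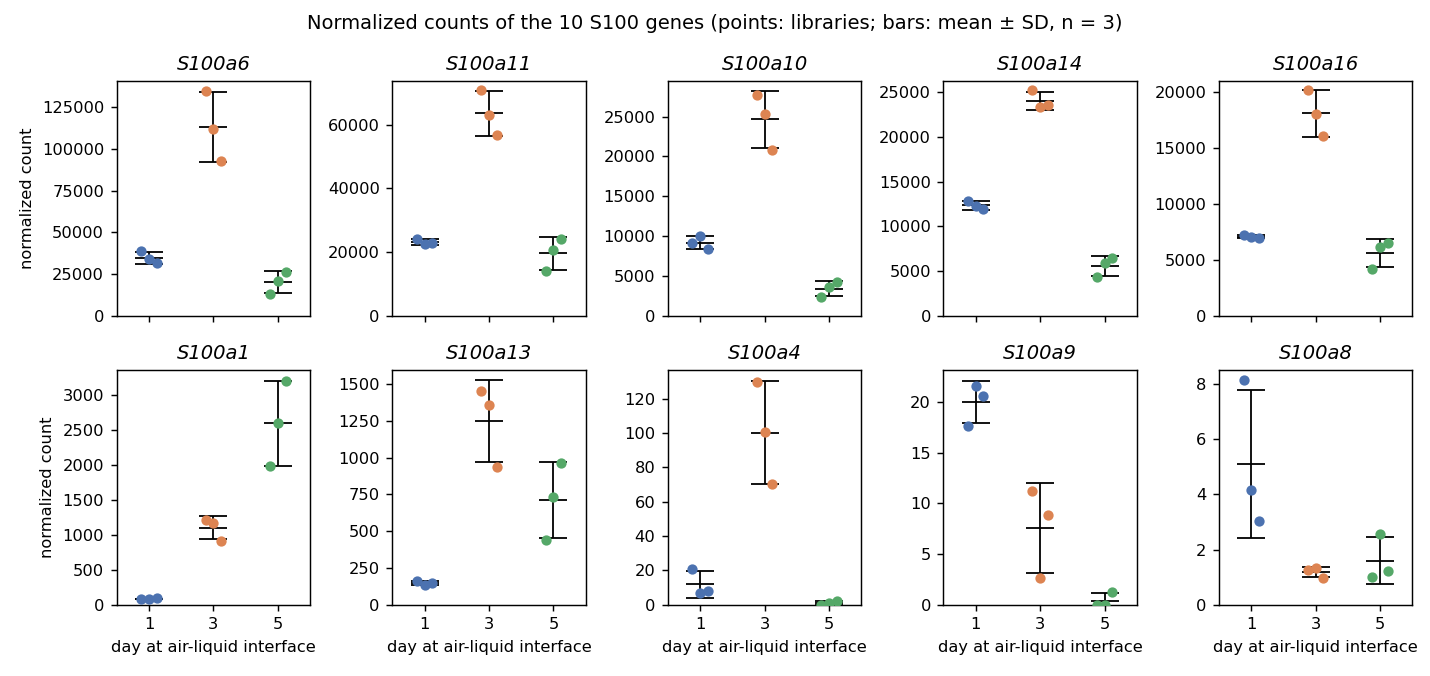
Normalized count (y axis, linear, 1 scale per gene) of each of the 10 S100 genes by day at the air-liquid interface (x axis); points are libraries and bars the mean ± SD of 3. S100a6 reaches 92573 to 134756 on day 3, S100a1 climbs to 1988 to 3199.8 on day 5, and S100a8 stays under 10 in every library.

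On day 3 against day 1, 8 of the 9 tested S100 genes rose and S100a9 fell. The background was high: 36.1% of all tested genes were called higher, 37% lower and 73% in either direction. The median log2 change was 1.45 over the 9 S100 genes and 0.00 over all tested genes. The 3 libraries of day 3 lay above all 3 of day 1 for 8 of the 9 genes and below them for 1, while 37.9% of all tested genes lay wholly above and 39.4% wholly below. S100a4 and S100a9 passed the filter on low values only through days on which they were higher. The 7 genes with reads in every library and tested on the deposited log2 values (S100a1, S100a6, S100a10, S100a11, S100a13, S100a14 and S100a16) gave 7 rises.

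From day 3 onward the direction turned: 8 of the 9 genes fell on day 5 against day 3, and S100a1 alone rose. Among the 7 tested genes with reads in every library, 6 fell and 1 rose on the deposited log2 values. Over all tested genes, 34.8% were called higher, 32.4% lower and 67.3% in either direction. The median log2 change was −2.14 over the 9 S100 genes, against 0.06 over all tested genes. The libraries of day 5 lay wholly below those of day 3 for 7 genes and wholly above for 1, with overlap for S100a13; the shares over all tested genes were 34.2% below and 36.8% above.

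Between the ends of the series, day 5 against day 1, 2 S100 genes rose (S100a1 and S100a13), 5 fell (S100a4, S100a6, S100a9, S100a10 and S100a14), and S100a11 and S100a16 were not called. Without S100a4 and S100a9, the 7 genes gave 2 rises and 3 falls on the deposited log2 values. The background was 36.7% higher, 37.7% lower and 74.5% in either direction. The medians were −0.84 over the 9 and −0.06 over all tested genes. Libraries lay wholly below for 6 genes, wholly above for 2 and overlapped for S100a11, beside 38.9% and 38% of all tested genes.

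Day 3 was also set against the mean of days 1 and 5, taken on the log2 scale. Here 8 of the 9 S100 genes were called higher on day 3 and S100a9 was not called. S100a1 was among the 8, although its day 3 libraries all lay below those of day 5, so a call here is not always a peak. Over all tested genes, 33.9% were called higher, 36.8% lower and 70.7% in either direction. All 7 tested genes with reads in every library, S100a1 included, were called higher on the deposited log2 values. The median log2 difference was 1.59 over the 9 and −0.04 over all tested genes. The 4 comparisons share libraries, day 3 entering 3 of them, so their counts are not separate pieces of evidence.

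**Figure D2:**
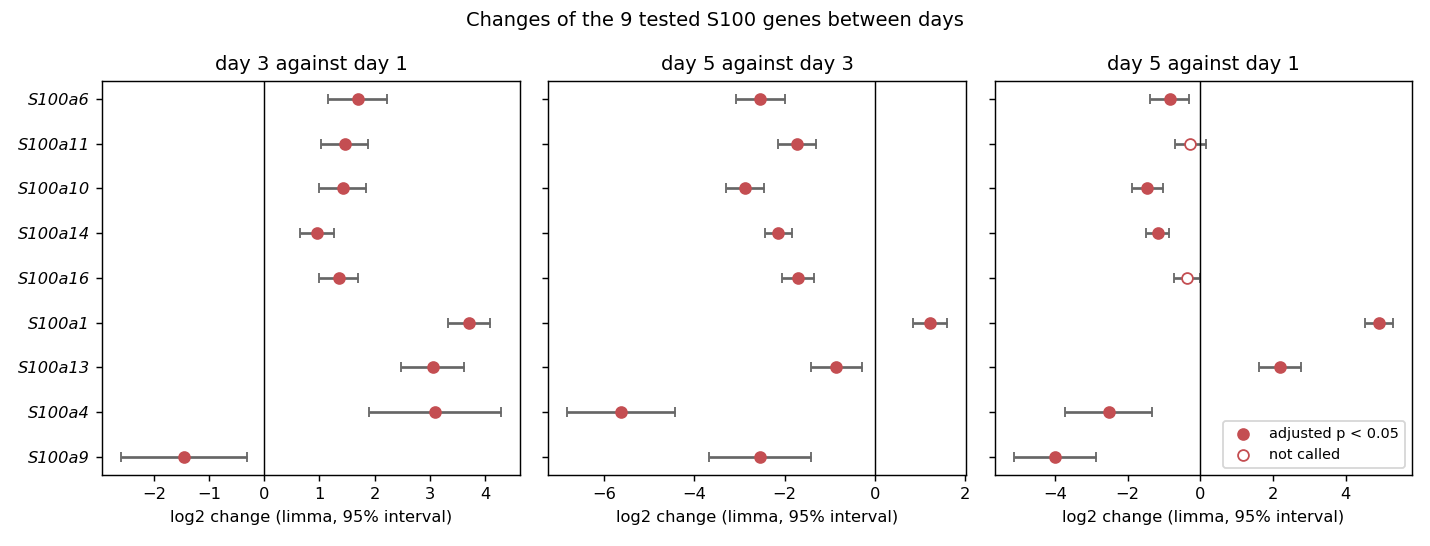
Log2 change (x axis, later day over earlier day; the axis range differs between panels) of the 9 tested S100 genes (rows) in the 3 comparisons of days, with the 95% interval from limma; filled points have an adjusted p under 0.05. All genes but S100a9 lie right of 0 on day 3 against day 1, and all but S100a1 lie left of 0 on day 5 against day 3.

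S100a10 and S100a11 are the annexin-binding members. S100a10 (ENSMUSG00000041959), also called p11, has lost calcium binding and is held in its open shape; with annexin A2 it forms a tetramer that tethers channels and plasminogen at the membrane. Its normalized counts were 9145, 9964 and 8345 in the day 1 libraries, 27760.1, 25352 and 20791 in those of day 3, and 2388, 3654 and 4209 in those of day 5. The 3 days did not overlap, with day 3 high and day 5 low. S100a10 rose by a log2 change of 1.42 on day 3 against day 1 (SE 0.19, adjusted p = 7.0e-05) and fell by 2.88 on day 5 against day 3 (SE 0.19, adjusted p = 9.8e-07). On day 5 it was below day 1, with a log2 change of −1.46 (SE 0.19, adjusted p = 5.1e-05).

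S100a11 (ENSMUSG00000027907), which binds annexins A1 and A2 and takes part in membrane repair and keratinocyte growth control, had 24207, 22396 and 22667 normalized counts on day 1. It had 70806, 62852 and 56863 on day 3, and 13923, 20736 and 23938 on day 5. Day 3 stood apart from both other days, and days 1 and 5 overlapped. The change on day 3 against day 1 was 1.45 (SE 0.19, adjusted p = 5.1e-05), and on day 5 against day 3 it was −1.73 (SE 0.19, adjusted p = 2.6e-05). Both changes were smaller with quantile normalization, 0.71 and −0.90, and were still called. Day 5 against day 1 gave a log2 change of −0.28 (95% interval −0.70 to 0.14, adjusted p = 0.21), and no alternative fit called it. A processed copy, S100a11-ps, took 2 reads in all 9 libraries.

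The upstream sequence of S100a11 is shown because it holds 2 of the 3 matches to an AP-1 site among the S100 promoters searched. RefSeq promoter windows (GRCm38.p6, another build than the one the reads were aligned to) were at hand for 8 of the 10 genes, 9 windows in all. The 250 bases before each start were searched on both strands for TGANTCA (AP-1), TATAAA (the TATA box), TGACNNNGC (the antioxidant response element core) and TTCNNNGAA (the STAT site). AP-1 letters stood in 2 of the 9 windows (S100a11 and 1 of the 2 S100a16 windows), against 6.75% of 32851 windows over all genes. TATA letters stood in 2 (S100a4 and S100a8), against 12.4%, the antioxidant core in 1 (S100a16), against 10.2%, and the STAT letters in none, against 7.02%. No 2 matches shared bases. The stretch below runs from 250 to 9 bases before the S100a11 start, on the plus strand at chr3:93520246-93520487, with the AP-1 letters in capitals, 136 and 38 bases before the start at their first base.
S100a11: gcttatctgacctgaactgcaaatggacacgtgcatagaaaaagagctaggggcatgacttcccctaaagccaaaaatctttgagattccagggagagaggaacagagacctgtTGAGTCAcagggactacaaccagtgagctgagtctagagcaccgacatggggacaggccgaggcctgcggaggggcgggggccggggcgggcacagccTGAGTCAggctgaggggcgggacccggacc

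Anxa2 (ENSMUSG00000032231), the partner of S100a10, had smaller log2 changes than S100a10 in each comparison of days. Its normalized counts were 34110.2, 39539 and 35592 on day 1, 44465, 42607 and 43791 on day 3, and 19821, 26463 and 26473 on day 5. The log2 changes were 0.26 on day 3 against day 1 (SE 0.15, adjusted p = 0.13, not called) and −0.86 on day 5 against day 3 (SE 0.15, adjusted p = 4.7e-04). Quantile normalization turned both, to a called fall of −0.60 (adjusted p = 8.0e-04) and to 0.04, not called (adjusted p = 0.76). S100a10 counts came to 26.8%, 25.2% and 23.4% of Anxa2 counts in the day 1 libraries, 62.4%, 59.5% and 47.5% in those of day 3, and 12.05%, 13.8% and 15.9% in those of day 5. The ratio was thus highest in the 3 libraries of day 3 and lowest in those of day 5, with no overlap. The mean log2 ratio was higher by 1.16 on day 3 than on day 1, lower by 2.02 on day 5 than on day 3 (log2 difference −2.02) and lower by 0.86 on day 5 than on day 1 (log2 difference −0.86). An exact two-sided permutation test gave p = 0.1 for each pair of days, and 0.1 after adjustment over the 3 pairs, which is the smallest p that 3 libraries against 3 allow. With the trend in transcript length and GC content removed, the difference between days 5 and 1 was −0.20.

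**Figure D3:**
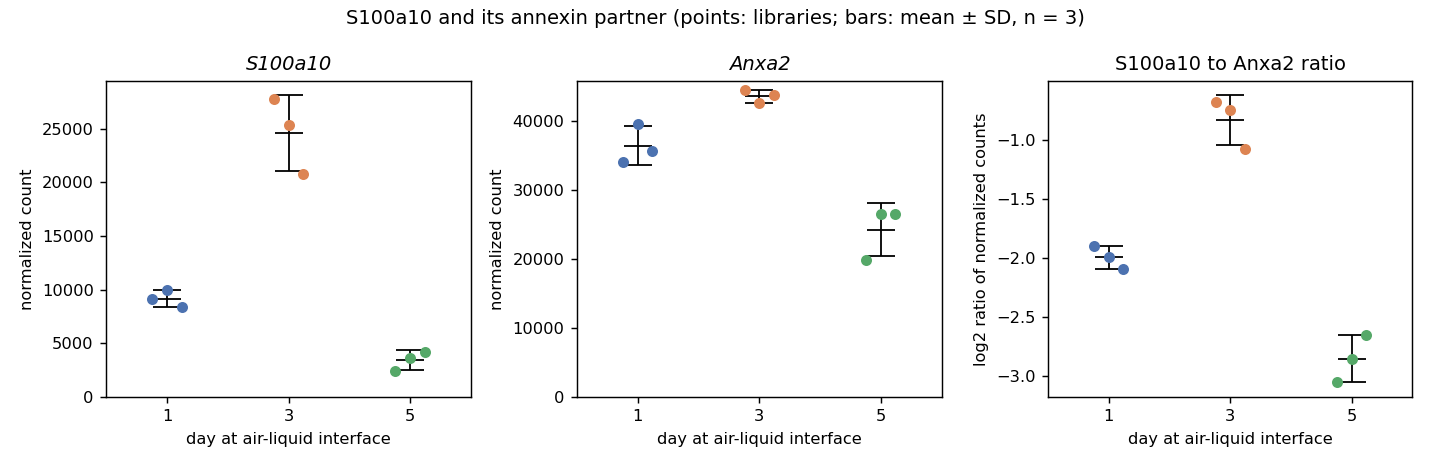
Normalized counts of S100a10 and Anxa2 (left and middle panels, linear y axes) and the log2 ratio of S100a10 to Anxa2 (right panel) by day (x axis); points are libraries and bars the mean ± SD of 3. The mean log2 ratio is −1.99 on day 1, −0.83 on day 3 and −2.85 on day 5.

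S100a6 (ENSMUSG00000001025), or calcyclin, binds the ubiquitin ligase adaptor CacyBP as well as annexins, and is known as a gene of growing cells and of many epithelia. It was the most abundant S100 gene on days 1 and 3. Its normalized counts were 38660.2, 34081 and 31480.3 on day 1, 134756, 112156 and 92573 on day 3, and 13116, 20931 and 26102 on day 5. No library of 1 day overlapped those of another. S100a6 rose 3.23-fold on day 3 against day 1 (log2 change 1.69, SE 0.24, adjusted p = 1.0e-04; 1.04 with quantile normalization) and fell by 2.54 on the log2 scale on day 5 against day 3 (SE 0.24, adjusted p = 1.0e-05). On day 5 against day 1 the log2 change was −0.84 (SE 0.24, adjusted p = 0.0090). Its upstream stretch is shown as that of the most abundant member; it holds none of the 4 letter patterns. It covers 250 to 13 bases before the start on the plus strand, chr3:90612644-90612881, with no letters in capitals.
S100a6: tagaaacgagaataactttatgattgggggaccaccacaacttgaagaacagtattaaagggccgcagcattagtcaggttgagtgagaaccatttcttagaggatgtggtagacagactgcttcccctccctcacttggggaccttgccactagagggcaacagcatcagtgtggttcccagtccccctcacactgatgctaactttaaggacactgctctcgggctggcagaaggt

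S100a14 and S100a16 are neighbours in the cluster, expressed widely in epithelia, and bind calcium weakly. S100a14 (ENSMUSG00000042306) had 12813, 12266 and 11909 normalized counts on day 1, 25199.5, 23382 and 23527 on day 3, and 4316, 5859 and 6433 on day 5. The libraries of days 1 and 3 lay close together, those of day 5 were more spread, and the days did not overlap. Its rise on day 3 against day 1 was the smallest of the 8, with a log2 change of 0.96 (SE 0.14, adjusted p = 1.1e-04; 0.54 after quantile normalization and 0.57 after removal of the length and GC trend, both called). It fell by 2.14 on day 5 against day 3 (SE 0.14, adjusted p = 8.1e-07), and its log2 change on day 5 against day 1 was −1.17 (SE 0.14, adjusted p = 2.2e-05).

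S100a16 (ENSMUSG00000074457) had 7193, 7066 and 6990.4 normalized counts on day 1, 20189.6, 17997 and 16072 on day 3, and 4208, 6129 and 6544 on day 5. The 3 days did not overlap, day 5 lying just under day 1. The log2 change on day 3 against day 1 was 1.35 (SE 0.16, adjusted p = 2.5e-05; 0.65 after removal of the length and GC trend, still called). On day 5 against day 3 it was −1.70 (SE 0.16, adjusted p = 8.4e-06; −1.06 with quantile normalization, still called). Its change on day 5 against day 1 was −0.36 (SE 0.16, adjusted p = 0.061) and was not called. That last value depended on the processing. Quantile normalization gave 0.02 (adjusted p = 0.91). Removal of the length and GC trend gave −0.64, which was called (adjusted p = 1.2e-04), and the fit without replicate 3 of day 5 gave −0.48, also called (adjusted p = 0.022). Over all 18 alternatives, adjusted p ran from 1.2e-04 to 0.91. The 2 RefSeq starts of S100a16 are shown because they hold different matches, the antioxidant core on the minus strand in the first (chr3:90537004-90537253, plus strand, written GCCAAGTCA as read on the plus strand) and AP-1 letters in the second (chr3:90540896-90541145, plus strand). Each runs from 250 bases to 1 base before its start, and capitals mark the match, whose first base is 26 bases before the start in the first and 192 in the second.
S100a16, first start: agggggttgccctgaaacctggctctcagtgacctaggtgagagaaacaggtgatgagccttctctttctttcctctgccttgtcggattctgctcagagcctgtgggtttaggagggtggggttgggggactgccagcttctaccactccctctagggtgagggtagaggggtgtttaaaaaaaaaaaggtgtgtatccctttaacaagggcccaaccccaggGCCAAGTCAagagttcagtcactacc
S100a16, second start: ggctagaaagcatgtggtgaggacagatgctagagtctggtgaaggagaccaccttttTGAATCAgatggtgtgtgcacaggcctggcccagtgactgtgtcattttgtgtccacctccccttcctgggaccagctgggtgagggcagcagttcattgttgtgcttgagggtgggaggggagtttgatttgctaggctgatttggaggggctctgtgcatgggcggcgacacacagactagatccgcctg

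S100a1 and S100a13 had the largest rises among the members with reads in every library, and S100a1 was the only member to go on rising. S100a1 (ENSMUSG00000044080) is best known from heart and skeletal muscle, where it tunes the ryanodine receptor and the calcium pump. Its normalized counts were 77.3, 81.4 and 90.4 on day 1, 1219, 1173 and 917 on day 3, and 1988, 2611 and 3199.8 on day 5. Each day lay wholly above the day before. The log2 change was 3.71 on day 3 against day 1 (SE 0.17, adjusted p = 1.7e-07), a 13.1-fold rise. On day 5 against day 3 it was 1.22 (SE 0.17, adjusted p = 1.5e-04), and on day 5 against day 1 it was 4.93 (SE 0.17, adjusted p = 6.8e-09). All 18 alternative fits called these 3 rises.

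S100a13 (ENSMUSG00000042312), a copper-binding member that carries FGF1 and interleukin-1 alpha out of cells by a route without a signal peptide, had 159, 135 and 148 normalized counts on day 1. It had 1451, 1360.3 and 934 on day 3, and 442, 733 and 962 on day 5. Day 1 was below both later days, while day 3 and day 5 overlapped. The log2 change on day 3 against day 1 was 3.05 (SE 0.26, adjusted p = 3.2e-06), and on day 5 against day 1 it was 2.20 (SE 0.26, adjusted p = 1.9e-05). On day 5 against day 3 it was −0.85 (SE 0.26, adjusted p = 0.013). After removal of the length and GC trend that fall was −0.31 and not called (adjusted p = 0.11). Without replicate 1 of day 3 it was −0.73 and not called (adjusted p = 0.055). It was −0.55 without replicate 1 of day 5 and still called (adjusted p = 0.037). Adjusted p over its 18 alternatives ran from 0.0027 to 0.11.

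S100a1 and S100a13 are transcribed away from each other, S100a1 on the minus and S100a13 on the plus strand, with 104 bases between their RefSeq starts in GRCm38.p6. The part of that gap next to the S100a13 start is shown, because both genes share it as upstream sequence. It covers 42 bases to 1 base before the S100a13 start, chr3:90514393-90514434 on the plus strand, and holds none of the 4 patterns.
S100a13: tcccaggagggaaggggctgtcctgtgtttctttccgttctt

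S100a4 (ENSMUSG00000001020), which binds non-muscle myosin IIA and is often used as a mark of fibroblasts and motile cells, was a low-count gene with a sharp peak. Its normalized counts were 21.02, 6.64 and 7.88 on day 1, 129.9, 100.4 and 70.1 on day 3, and 0, 1.29 and 2.46 on day 5. Day 3 stood above every library of the other days, and day 5 held 3 reads in all, against 250 on day 3 and 52 on day 1. The log2 change on day 3 against day 1 was 3.10 (SE 0.54, adjusted p = 3.8e-04). For day 5 the fitted changes of −5.62 against day 3 (adjusted p = 1.0e-05) and −2.52 against day 1 (adjusted p = 0.0015) depend on the 1 added to each count, and with 8 added they were −3.52 and −1.04, both called. As a ratio of normalized reads, day 5 was 0.0118 of day 3 (95% exact counting interval 0.00242 to 0.0350) and 0.0962 of day 1 (0.0192 to 0.297). Such intervals cover counting error only, since the reads are not known to be independent molecules.

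S100a4 shares 60.6% of its exonic bases with the predicted gene Gm42674 on the same strand in GENCODE M21. Gm42674 had 0 reads in all 9 libraries, so reads that could be assigned to either gene may be missing from S100a4. The sum of the fibroblast markers did not peak with it. The summed level of 9 fibroblast genes, of which 2 passed the filter, ran from 33.2 to 39.0 normalized counts among the day 1 libraries, 5.36 to 12.8 among those of day 3 and 151 to 186 among those of day 5. The day 5 sum came mainly from Dcn, a proteoglycan, and Vim, an intermediate filament. Dcn had no read on days 1 and 3, and Lum and Thy1 had none on days 3 and 5. Col1a1, Col3a1 and Pdgfrb had their highest mean on day 3, on 7, 4 and 1 reads there. The part of fibroblasts in the S100a4 level was not tested. The S100a4 promoter is shown for its TATA letters, in capitals, 31 bases before the start at their first base. It runs from 250 bases to 1 base before the start on the plus strand, chr3:90603520-90603769.
S100a4: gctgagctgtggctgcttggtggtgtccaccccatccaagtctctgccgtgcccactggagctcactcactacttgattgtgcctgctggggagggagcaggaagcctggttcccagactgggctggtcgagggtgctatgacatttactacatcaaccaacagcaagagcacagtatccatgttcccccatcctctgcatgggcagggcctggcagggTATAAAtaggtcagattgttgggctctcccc

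S100a8 and S100a9 form calprotectin, the zinc- and manganese-binding heterodimer that neutrophils carry in bulk and that stressed epithelia make. Neither gene was abundant here. S100a9 (ENSMUSG00000056071) had 17.6, 21.6 and 20.6 normalized counts on day 1, 11.2, 2.68 and 8.88 on day 3, and 0, 0 and 1.23 on day 5. The days did not overlap, and the reads behind them were 86, 20 and 1. The log2 change on day 3 against day 1 was −1.45 (SE 0.51, adjusted p = 0.025). It was not called with no filter on low values (−1.45, adjusted p = 0.056) or without replicate 2 of day 1 (−1.39, 0.070), replicate 3 of day 1 (−1.43, 0.065) or replicate 2 of day 3 (−0.92, 0.099); adjusted p over its 17 alternatives ran from 0.0042 to 0.099. On day 5, S100a9 stood at 0.0493 of day 3 (95% exact counting interval 0.00119 to 0.308) and 0.0194 of day 1 (0.000485 to 0.111). The fitted log2 changes of −2.55 (adjusted p = 0.0014) and −3.998 (adjusted p = 3.9e-05) were −0.85 and −1.73 with 8 added to each count, both called. Against the mean of days 1 and 5, day 3 differed by 0.55 (SE 0.44, adjusted p = 0.29), which was −0.02 with 8 added and 1.07, called, without replicate 2 of day 3 (adjusted p = 0.043; 0.043 to 0.95 over its 16 alternatives).

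S100a8 (ENSMUSG00000056054) had 8.14, 4.15 and 3.03 normalized counts on day 1, 1.25, 1.34 and 0.987 on day 3, and 0.991, 2.58 and 1.23 on day 5. Day 1 lay above both other days, and days 3 and 5 overlapped. These levels rest on 22, 3 and 4 reads, and 3 reads, the floor used here, amount to 1.82 to 4.02 normalized counts depending on the library. Day 3 was 0.230 of day 1 (95% exact counting interval 0.0442 to 0.767) and day 5 was 0.303 of day 1 (0.0759 to 0.892). The mean log2 ratio of S100a8 to S100a9 was −1.80 on day 3 and −1.86 on day 1, a difference of 0.06 (exact two-sided permutation p = 0.9, also 0.9 after adjustment over 3 pairs of days). The difference was 2.75 on day 5 against day 3 and 2.81 on day 5 against day 1 (exact permutation p = 0.1 each, adjusted p = 0.15), but the day 5 ratio rests on 4 and 1 reads.

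Neutrophil markers differed from S100a9 in the first step and moved the same way in the second. The summed level of 11 neutrophil genes other than S100a8 and S100a9, of which 3 passed the filter, was 75.8 to 82.7 on day 1, 277 to 326 on day 3 and 4.95 to 14.2 on day 5, so it was highest on day 3, when S100a9 was below its day 1 level. All 3 tested neutrophil genes were called lower on day 5, against day 3 and against day 1. Over all tested genes, 32.4% and 37.7% were called lower in these comparisons. The 3 genes and S100a9 reached the filter through libraries of days 1 and 3, where they were higher, so their falls on day 5 were favoured by the filter. The part of neutrophils in the levels of the pair was not tested. Nearly all of the summed neutrophil level was Ly6g, Itgb2 and Cxcr2, and the receptor Csf3r and the granulocyte resistin Retnlg had no read on any day. The summed level of 12 leukocyte genes, of which 5 passed the filter, was 270 to 306 on day 1, 2196 to 2293 on day 3 and 63491 to 81661 on day 5. Lyz2, a lysozyme also made by airway epithelium, averaged 70299 ± 9766 of the day 5 sum (SD, n = 3). Cd68, a lysosomal protein of macrophages, made up most of the sum on days 1 and 3, averaging 259 ± 16.7, 1612 ± 79.98 and 163 ± 16.9 on days 1, 3 and 5 (SD, n = 3 each), and so was highest on day 3 with most S100 genes (log2 change 2.63 on day 3 against day 1, adjusted p = 1.4e-07). All 5 tested leukocyte genes were called higher on day 3 against the mean of days 1 and 5 on the log2 scale, beside 33.9% of all tested genes. Lyz2 was among them, although it averaged 550 on day 3 and 70299 on day 5, so they did not share a peak on day 3. Itgam passed the filter mostly through day 3, Cd74 and Lyz2 only through days 3 and 5, and Coro1a only through days 1 and 3. The count of calls on day 3 was thus partly favoured by the filter, and 7 of the 12 genes were not tested. The part of leukocytes in the S100 levels was not tested. Ptprc (CD45) had 15 reads on day 1, 0 on day 3 and 1 on day 5.

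Together the 10 genes took 0.406 ± 0.0320% of all reads on day 1, 0.952 ± 0.0865% on day 3 and 0.279 ± 0.0638% on day 5 (SD, n = 3 each). Over the same days their summed level was 86661 ± 5349, 245886 ± 34908 and 57477 ± 15747 normalized counts. S100a6 held 40.0% of the members' reads on day 1, 45.8% on day 3 and 34.5% on day 5. S100a11 held 26.7%, 25.9% and 34.1% on the same days, and S100a10 10.6%, 10.02% and 5.94%. S100a1 went the other way, with 0.0963% on day 1, 0.449% on day 3 and 4.57% on day 5. S100a13 held 0.170%, 0.504% and 1.22%. S100a4, S100a8 and S100a9 each averaged at most 0.0401% on any day.

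**Figure D4:**
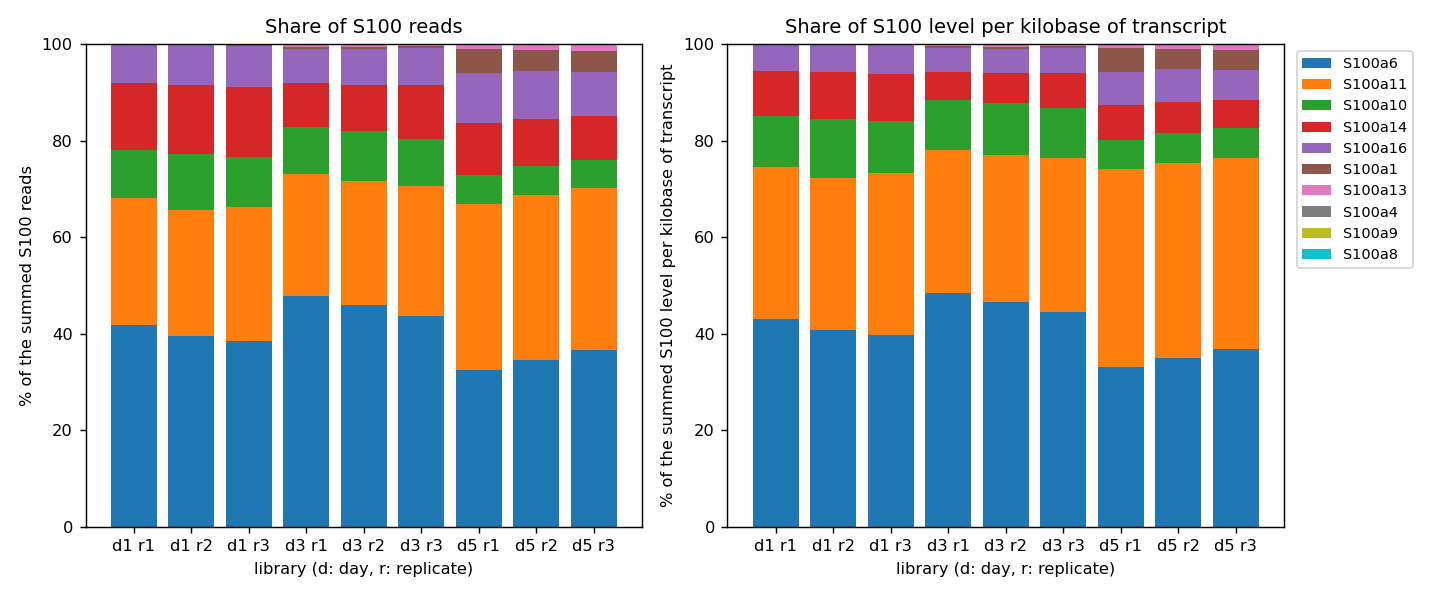
Share of each S100 gene (y axis, % of the 10 genes' sum) in reads (left) and in level per kilobase of transcript (right), for each of the 9 libraries (x axis, d for day and r for replicate). S100a1 and S100a13 become visible at the top of the day 5 bars, and S100a10 shrinks on day 5.

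Levels of different genes were compared per kilobase of transcript, with lengths from GENCODE M21. On day 1 the order was S100a6 (58143 ± 6084 normalized counts per kilobase), S100a11 (45186 ± 1912), S100a10 (15751 ± 1393), S100a14, S100a16, S100a13, S100a1, S100a9, S100a4 and S100a8. Neighbours in this order did not overlap between their 3 libraries except from S100a9 downwards. On day 3 the first 5 kept that order, S100a6 standing at 189392 ± 35330 and S100a11 at 124280 ± 13687. S100a1 (1759 ± 260) and S100a13 (1746 ± 387) overlapped behind them, ahead of S100a4, S100a9 and S100a8. On day 5 the order was flatter. S100a11 (38224 ± 10009) and S100a6 (33556 ± 10942) overlapped at the top, and S100a16, S100a14, S100a10 and S100a1, at means of 4146 to 6235, each overlapped the next. S100a13 (997 ± 365) followed, and S100a8, S100a4 and S100a9 were near 0. Among all tested genes, S100a6 ranked 14th per kilobase on day 1, 8th on day 3 and 50th on day 5, and S100a11 20th, 17th and 38th.

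On days 3 and 5 the libraries of a day stood in much the same order for most of the genes. On day 3, replicate 1 was the highest of its day for 9 of the 9 tested S100 genes and replicate 3 the lowest for 7, replicate 2 being lowest for the other 2. On day 5, replicate 1 was the lowest and replicate 3 the highest for 9 of 9. Day 1 had no such order, with replicates 1, 2 and 3 the highest for 6, 2 and 1 genes and the lowest for 2, 3 and 4. The share of reads on 83 cytosolic ribosomal protein genes ran in the same order, at 13.2%, 12.9% and 10.6% in replicates 1, 2 and 3 of day 3 and 4.49%, 6.19% and 7.003% in those of day 5, after 5.49%, 5.25% and 5.11% on day 1. S100 transcripts are short, 486 to 915 bases, and change ran with length over all genes. In the tenth of genes with the shortest transcripts (up to 668.5 bases), the median log2 change was 0.74 on day 3 against day 1, −1.08 on day 5 against day 3 and −0.53 on day 5 against day 1; in the tenth with the longest it was −0.89, 0.39 and −0.58. After removal of the length and GC trend, the S100 medians were 1.16, −1.92 and −0.83, and the order of libraries changed in part. Replicate 1 of day 3 was then the highest for 6 of 9 and replicate 1 of day 5 the lowest for 8, while replicate 3 of day 5 was the highest for 5 and replicate 1 of day 1 became the lowest for 8 of 9. The part of transcript length in the remaining changes was not tested further.

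The partners, receptors and release factors of S100 proteins moved in both directions. Of 22 listed genes, 20 were tested; 12 rose, 5 fell and 3 were not called on day 3 against day 1, 5 rose, 10 fell and 5 were not called on day 5 against day 3, and 9 rose, 8 fell and 3 were not called on day 5 against day 1. Their median log2 changes were 0.72, −0.41 and −0.11. Over all tested genes, 36.1%, 34.8% and 36.7% were called higher in these comparisons, and 37%, 32.4% and 37.7% lower. Other annexins differed among themselves. Anxa1 averaged 74228 ± 4667, 91863 ± 10283 and 47847 ± 2533 on days 1, 3 and 5 (SD, n = 3 each), called as lower on day 5 (−0.94 against day 3, adjusted p = 4.0e-04; −0.63 against day 1, adjusted p = 0.0035) and as higher on day 3 against the mean of days 1 and 5 (0.62, adjusted p = 0.0019). Quantile normalization ended the call against day 3 (−0.40, adjusted p = 0.074) and that against the mean (−0.16, adjusted p = 0.37), and it gave a called fall on day 3 against day 1 (−0.73, adjusted p = 0.0043). Anxa11, the partner of S100a6 in membrane traffic, rose by 0.80 on day 3 against day 1 (adjusted p = 1.1e-05) and fell by 0.92 on day 5 against day 3 (adjusted p = 6.7e-06). The rise was 0.21 after removal of the length and GC trend and the fall −0.47 with quantile normalization, both called. Anxa6, which S100a1, S100a6 and S100a11 can bind, rose in both steps, by 2.0003 (adjusted p = 8.9e-07) and 0.41 (adjusted p = 0.019). The second step was called in 14 of 18 alternatives and was 0.11 after removal of the length and GC trend (adjusted p = 0.40).

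Several intracellular targets fell on day 3 against day 1, when their S100 partner rose. Ahnak, a giant scaffold that the S100a10-annexin A2 complex recruits, averaged 12329 ± 1154 on day 3, against 37697 ± 5273 on day 1 (log2 change −1.61, adjusted p = 3.9e-06). Myh9, the myosin heavy chain bound by S100a4, averaged 5623 ± 807 on day 3, against 21431 ± 3391 on day 1 (−1.93, adjusted p = 4.1e-06), and Myh10, its sister chain, changed by −1.89 (adjusted p = 2.6e-05). Cacybp, the calcyclin-binding adaptor, averaged 1502 ± 61.3 on day 3, against 3325 ± 270 on day 1 (−1.14, adjusted p = 2.0e-06), and fell further on day 5 (−0.48 against day 3, adjusted p = 9.0e-04). The transcripts of Ahnak, Myh9 and Myh10, at 9465, 7433 and 7713 bases, are among the longest, over 5145.5 bases, where the median log2 change over all genes was −0.89. After removal of the length and GC trend the 4 changes on day 3 against day 1 were −0.86 for Ahnak, −1.61 for Myh9, −1.11 for Myh10 and −0.75 for Cacybp, all called.

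Receptors differed among themselves. Ager, which encodes RAGE, averaged 19.1 ± 5.16 on day 1, 114 ± 12.04 on day 3 and 86.8 ± 21.998 on day 5 (SD, n = 3 each), a log2 change of 2.54 on day 3 against day 1 (adjusted p = 1.4e-05; 1.64 after removal of the length and GC trend, still called). Tlr4 averaged 373 ± 42.6, 184 ± 13.8 and 339 ± 82.5 on days 1, 3 and 5, so it fell on day 3 against day 1 (−1.01, adjusted p = 3.7e-04) and rose on day 5 against day 3 (0.85, adjusted p = 0.0016). After removal of the length and GC trend these were −0.33, still called, and 0.22, not called (adjusted p = 0.12). Both cargoes of S100a13 rose with it on day 3 against day 1, Fgf1 by 1.50 (adjusted p = 2.4e-04) and Il1a by 1.34 (adjusted p = 0.0026), and they parted on day 5. Fgf1 rose to 1974 ± 198 on day 5, against 102 ± 19.5 on day 3 (4.27, adjusted p = 3.5e-07), while Il1a fell to 37.2 ± 13.3 on day 5, against 319 ± 121 on day 3 (−3.05, adjusted p = 1.5e-05). Trpv6, a calcium channel that S100a10 and annexin A2 carry to the membrane, rose to 132 ± 19.6 on day 5, against 7.03 ± 0.414 on day 3 (4.04, adjusted p = 1.4e-06), and had 4 reads on day 1. It passed the filter only through day 5, so this rise was favoured by the filter. Plasminogen (Plg), the ligand of cell-surface S100a10, had no read in any library.

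**Figure D5:**
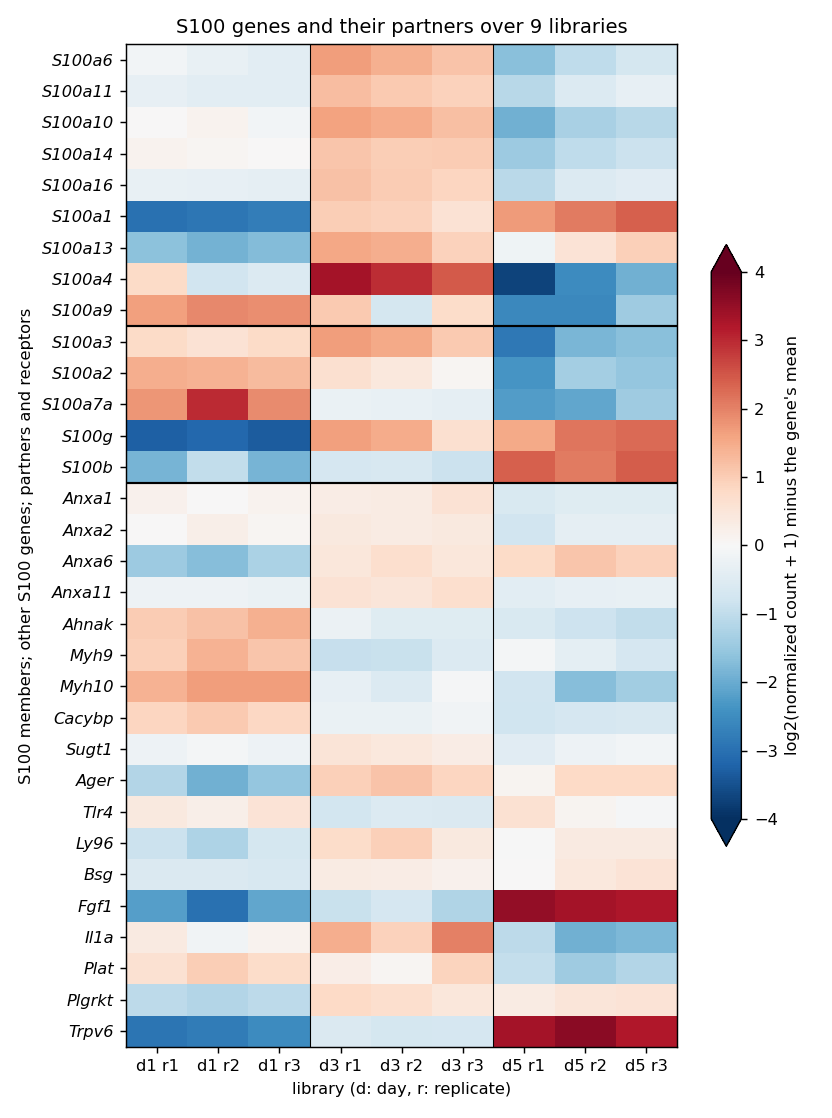
Log2(normalized count + 1) minus the gene's mean over the 9 libraries (colour, clipped at 4 either side) for the 9 tested S100 genes, 5 other tested S100 genes and 18 partners and receptors (rows, separated by lines) in each library (columns, d for day and r for replicate). Most of the 9 S100 rows are red on day 3, S100a1 is red on day 5, and Fgf1 and Trpv6 are red on day 5.

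Of 9 other S100 genes listed, 8 were in the table and 5 were tested, and their summed level was low, by day 504 ± 92.3, 454 ± 93.3 and 130 ± 33.9 normalized counts (days 1, 3 and 5; SD, n = 3 each). On day 3 against day 1, 1 rose, 2 fell and 2 were not called. On day 5 against day 3, 1 rose, 3 fell and 1 was not called, and on day 5 against day 1, 2 rose and 3 fell. Over all tested genes, 36.1%, 34.8% and 36.7% were called higher in these comparisons, and 37%, 32.4% and 37.7% lower. S100b, the 1 that rose on day 5 against day 3, passed the filter only through day 5. S100g, the 1 that rose on day 3 against day 1, passed it only through days 3 and 5. These 2 were also the genes that rose on day 5 against day 1, so all these rises were favoured by the filter. S100a3 (ENSMUSG00000001021), a hair cuticle protein next to S100a4 in the cluster, averaged 198 ± 13.6, 327 ± 70.5 and 28.8 ± 11.3 on days 1, 3 and 5 and fell by 3.53 on day 5 against day 3 (adjusted p = 4.4e-06). It shares 16.1% of its exonic bases with Gm42674. S100a7a (ENSMUSG00000063767), a psoriasin-type antimicrobial, fell to 32.9 ± 1.17 on day 3, against 209 ± 106 on day 1 (−2.52, adjusted p = 8.2e-05), and to 10.6 ± 3.67 on day 5. S100g and S100b, which lie outside the cluster on chromosomes X and 10, had their highest mean on day 5. S100g, the calcium-ferrying calbindin of gut and kidney, had 3 reads on day 1 and averaged 38.9 ± 13.3 on day 3 and 63.5 ± 16.7 on day 5. Its libraries of days 3 and 5 overlapped, and day 5 against day 3 was not called (limma log2 change 0.72, adjusted p = 0.094). S100b, best known from glia, had 1 read on day 1 and 3 on day 3, and averaged 16.8 ± 2.30 on day 5, 14.5 times day 3 (95% exact counting interval 4.64 to 72.8).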

How the data were processed

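Total RNA went into VAHTS universal libraries, per the labels' protocols. The submitters' processing notes name HISAT2 2.1.0 and DESeq2 1.36.0 as tools and GRCm39 as the genome build. For counter, annotation release and strand setting, the answer is not given in the sources used here. Per gene and library the authors deposited 1 log2 value, a read count over a size factor on the log2 scale, with no pseudocount; the 297330 cells with a spreadsheet error text were read as 0. Of 57107 lines, 359 duplicates with identical values were dropped. On the linear scale, 100% of the deposited values were whole multiples of 1 read within 0.01 of a read, which gave reads and depth (16.4 to 35.1 M).

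The 17338 genes that reached 10 normalized counts in 3 or more of the 9 libraries were tested on log2(normalized count + 1), because log2 of 0 is undefined; this understates the change of low genes. limma 3.58.1 (R 4.3.3) was fitted across all genes with 1 mean per day over the 9 libraries (6 residual degrees of freedom, eBayes with trend), two-sided, with Benjamini-Hochberg adjustment at 0.05. Ratios of 2 genes were tested by exact permutation (scipy 1.17.1). Counting intervals are exact at 95%, and the floor is 3 reads. Fits were tested on simulated data. The titles gave day and replicate number, and no library was left out. Transcript length (98.3% of tested genes), GC content and overlap came from GENCODE M21 (GRCm38), and promoter windows from RefSeq (GRCm38.p6). The members and lists were chosen with earlier results of these data known. All 10 members are named, plus, from lists of other S100 genes, partners and EF-hand sensors, 13 genes whatever their result and up to 3 per list with the largest change; 1 gene that this rule names is not reported here. Alternatives were quantile normalization, trimmed-mean (TMM) factors, 8 as pseudocount, deposited log2 values without genes holding a 0, no filter, the length and GC trend removed, voom weights, only the days compared, the replicate number as a block, and each library left out.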

Additional observations from a re-analysis of the deposited data

How the results depend on the processing

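The count of S100 genes called kept within 1.5 times its value in 71 of 71 alternative fits. That limit was easy to keep, since many genes of any kind were called. The share over all tested genes was 59.3% to 77% in the alternatives with the filter and 38.3% to 46.8% without it. The count of S100 genes called was 7 to 9 over the alternatives for day 3 against day 1 and 7 to 9 for day 5 against day 3. It was 5 to 8 for day 5 against day 1 and 7 to 9 for day 3 against the mean of days 1 and 5. Leaving out each library in turn gave 8 to 9, 8 to 9, 7 to 8 and 8 to 9. The lowest counts came from the deposited log2 values, which leave 7 of the 9 genes to test. Single log2 changes kept direction and call in 620 of 631 cases; 6 lost the call (S100a9 and S100a13, given above), 3 gained it and 2 reversed: S100a16 on day 5 against day 1 (0.016 with quantile normalization) and S100a9 on day 3 against the mean of days 1 and 5 (−0.015 with a pseudocount of 8). The cause was not tested. The S100a10 to Anxa2 log2 ratio ranged, over left-out libraries, from 1.08 to 1.28 for day 3 against day 1, −2.14 to −1.92 for day 5 against day 3 and −0.96 to −0.76 for day 5 against day 1. The S100a8 to S100a9 ratio ranged from −0.52 to 0.47, 2.30 to 3.32 and 2.36 to 3.28, the first reversing without day 1 replicate 2 (−0.08), day 1 replicate 3 (−0.22) and day 3 replicate 2 (−0.52). Of 30 shares of reads, 17 moved by more than 1 SD per kilobase. Removing the length and GC trend shifted the median of all tested genes to −0.23 on day 5 in both comparisons. Whether replicate numbers pair the libraries across days is not in the labels. Correlations of the libraries' deviations from their day mean cannot decide it (same-numbered libraries −0.31 to 0.14, others −0.15 to 0.36). With the replicate block the counts of calls were 9, 9, 7 and 8, as without it. Depth limits S100a4, S100a8 and S100a9 on day 5, where 3 reads in a library amount to 2.97 to 3.87 normalized counts.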

Other observations

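The other EF-hand calcium sensors did not show 1 direction. Of 14 genes, 6 rose and 3 fell on day 3 against day 1, 1 rose and 8 fell on day 5 against day 3, and 5 rose and 6 fell on day 5 against day 1 (limma, adjusted p under 0.05), with median log2 changes of 0.01, −0.38 and −0.01. Over all tested genes, 36.1%, 34.8% and 36.7% were called higher in these comparisons, and 37%, 32.4% and 37.7% lower. Calml3, a calmodulin-like protein of stratified epithelia, averaged 256 ± 159, 1236 ± 118 and 778 ± 109 normalized counts on days 1, 3 and 5 (SD, n = 3 each). Capns1, the small calpain subunit, followed the day 3 peak, at 7025 ± 371, 14579 ± 386 and 7568 ± 1182. Calu, a calcium-binding protein of the secretory pathway, fell to 2946 ± 241 on day 3, against 7140 ± 386 on day 1 (log2 change −1.28, adjusted p = 2.5e-06). Calml4 had 5 reads on day 1 and 3 on day 3, and averaged 47.3 ± 10.2 on day 5. This gene, the 1 that rose on day 5 against day 3, passed the filter only through day 5, so its rise was favoured by the filter.

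The S100-fused genes, long cornified envelope proteins with an S100 domain at 1 end, numbered 7 on the list. Of these, 4 were tested. On day 3 against day 1, 3 fell, while 37% of all tested genes were called lower. On day 5 against day 3, 3 rose and 1 fell, beside 34.8% and 32.4% of all tested genes. On day 5 against day 1, 1 fell, beside 37.7%. Flg and Rptn passed the filter only through libraries of days 1 and 5, so their fall on day 3 and rise on day 5 were favoured by the filter. Tchh (trichohyalin) averaged 324 ± 28.7, 123 ± 9.38 and 283 ± 69.0 on days 1, 3 and 5 (SD, n = 3 each). Crnn (cornulin) fell to 6.96 ± 4.18 on day 5, against 276 ± 45.1 on day 3 (log2 change −5.27, adjusted p = 3.1e-06). Rptn (repetin) had 38 reads on day 1, 0 on day 3 and 30 on day 5.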
